A study of Mus musculus with 17 samples.

Results

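Ubd, Serpina3f, Serpina3g, Calhm6 and Slpi are genes known to respond to inflammatory signals, and they were chosen by their level in CD8 T cells primed by liver sinusoidal endothelial cells (LSEC), which was high in earlier values of these arrays. A probe belonged to the group when the platform's annotation gave it 1 of the 5 symbols. Of the 5 genes, 4 had such a probe, 1 each, and all 4 probes passed the filter on dim signals. Ubd passed it only through the LSEC-primed arrays and 1 memory array, so being high there was a condition for its being tested. They are 4 of 10613 genes tested, out of 19057 genes with a probe of 1 symbol. No probe carries the symbol Serpina3g, so that gene has no value here. Since the level in LSEC-primed cells chose the genes, every difference of these genes against those cells is given as a description with no test. Tests are given for the comparisons among naive, effector and memory cells. The choice also favoured genes that are low outside the LSEC-primed cells, which limits what equal low levels in 2 of those groups show.

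Each of 17 Illumina mouse arrays held RNA from 1 sample of CD8 T cells. All cells came from OT-I mice of C57Bl/6 background aged 2 to 6 months, whose T cells carry 1 transgenic receptor for an ovalbumin (OVA) peptide. The 5 naive samples were isolated from spleens. The 5 effector samples (Teff) were activated in coculture with splenic dendritic cells, although the label of Teff 8 gives the spleen as its source. The 4 partial memory samples (Tpm) had been cultured with LSEC, the lining cells of the liver's capillaries, which are able to present antigen. The 3 memory samples were taken from the spleen 3 months after infection with Listeria monocytogenes carrying OVA. Arrays are named by their group and the sample number in the labels. No label states whether arrays of 1 group stem from different mice or cultures. The p-values therefore cover the spread among these samples alone, which may be technical.

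Interferon-gamma and tumour necrosis factor (TNF) are inflammatory cytokines, the latter acting through NF-kB, and many genes that answer them encode proteins of antigen presentation, cell death control and protease inhibition. Ubd encodes FAT10, a ubiquitin-like modifier that is joined to other proteins and sends them to the proteasome, and its human counterpart is induced jointly by interferon-gamma and TNF. Serpina3f and Serpina3g belong to the clade A serpins, inhibitors that trap proteases in a suicide reaction, and Serpina3g is known as a cathepsin inhibitor in activated and memory CD8 T cells. Calhm6, long called Fam26f, encodes a membrane protein of the calcium homeostasis modulator family that takes part in contacts between innate cells and NK cells. Slpi encodes the secretory leukocyte protease inhibitor, a secreted protein with 2 whey acidic protein (WAP) domains that blocks elastase and cathepsin G and is made by macrophages, neutrophils and epithelia.

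The genes lie on 4 chromosomes (RefSeq, build GRCm38.p6). Ubd spans chr17:37193892-37196101 on the plus strand and Calhm6 chr10:34126067-34127972 on the minus strand. Slpi spans chr2:164354070-164356507 on the minus strand. Serpina3f (chr12:104214544-104221129) and Serpina3g (chr12:104236147-104241939) are related genes of 1 cluster on the plus strand. Whether the Serpina3f probe also reads Serpina3g RNA was not tested, so its value may hold both.

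The 250 bases upstream of the start site are printed for Ubd, Serpina3f and Calhm6, since these windows hold motifs of the cytokine pathways named above. All 5 genes matched a RefSeq promoter of build GRCm38.p6. The motifs searched, on both strands, were GAAA, any 2 bases and GAAA (a pair of interferon-stimulated half-sites), TTC, any 3 bases and GAA (the gamma-activated site), and GGG, any 2 bases, TT, any base and CC (an NF-kB site). Capitals mark the matches, none of which overlaps another. The windows are chr17:37193642-37193891 (plus strand) for Ubd, chr12:104214294-104214543 (plus strand, first start site) for Serpina3f and chr10:34127973-34128222 (minus strand) for Calhm6, each written 5′ to 3′.
Ubd: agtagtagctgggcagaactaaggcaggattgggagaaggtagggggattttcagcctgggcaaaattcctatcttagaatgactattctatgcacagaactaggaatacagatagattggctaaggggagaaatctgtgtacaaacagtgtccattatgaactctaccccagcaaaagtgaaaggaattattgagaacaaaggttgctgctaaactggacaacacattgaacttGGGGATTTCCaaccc
Serpina3f: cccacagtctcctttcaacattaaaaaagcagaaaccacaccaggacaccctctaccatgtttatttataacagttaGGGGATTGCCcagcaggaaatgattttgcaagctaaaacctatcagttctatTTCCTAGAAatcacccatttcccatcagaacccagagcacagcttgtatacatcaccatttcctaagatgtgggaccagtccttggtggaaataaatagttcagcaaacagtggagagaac
Calhm6: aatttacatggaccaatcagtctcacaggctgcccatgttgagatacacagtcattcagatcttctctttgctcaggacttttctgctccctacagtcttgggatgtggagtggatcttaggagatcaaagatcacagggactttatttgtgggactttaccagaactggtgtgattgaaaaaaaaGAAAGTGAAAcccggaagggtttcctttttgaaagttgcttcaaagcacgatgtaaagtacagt

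The Ubd window holds 1 NF-kB motif, from 15 to 6 bases upstream of the start site. The Serpina3f window holds a gamma-activated motif from 121 to 113 bases upstream and an NF-kB motif from 173 to 164 bases upstream. The Calhm6 window holds 1 interferon-stimulated pair, from 64 to 55 bases upstream. The Serpina3g window has the same kinds of motif as that of Serpina3f, at 33 to 25 and 85 to 76 bases upstream, and the Slpi window has no match. Over 32851 promoter windows of 250 bases, 2.98% hold the interferon-stimulated pair, 7.02% the gamma-activated site and 4.11% the NF-kB site. A match describes the letters and does not show that a factor binds there.

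The arrays differed in signal and in the RNA of other cells. The mean signal was between 227 and 471 on 15 arrays, 140.2 on memory 3 and 96.7 on memory 5. On memory 5, 20.1% of probes were above background, against 31.1% to 38.7% elsewhere. Markers of CD8 T cells were above background for 9 or 10 of 10 measured genes on every array. Of 21 measured markers of liver sinusoidal endothelium, between 17 and 21 were above background on each Tpm array, and their summed corrected intensity was 5620 to 8861 there. That sum was 318 to 802 on naive arrays, 1240 to 1692 on Teff arrays, and 1955, 471 and 154 on memory 3, 5 and 9. Of 7 stromal markers, 4 were above background on Tpm 14 and on memory 3, all 7 on the other Tpm arrays, none on naive arrays and at most 1 on Teff arrays. Macrophage markers summed to 3710 on Tpm 14, 842 and 954 on naive 1 and 11, and at most 403 on the other arrays. The 5 measured red cell markers summed to 5896 to 35213 on naive and memory arrays, and to 14.7 to 32.0 on Teff and Tpm arrays. The 2 measured NK cell markers summed to 343 to 1052 on memory arrays and to at most 53.4 elsewhere. The part of red cell and NK cell RNA in the differences below was not tested. The single measured hepatocyte marker was above background on 4 arrays. In RNA from many cells, a larger share of cells of 1 type and more RNA per cell cannot be told apart.

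Levels are log2 of the background-corrected intensity plus 16, and a probe is above background when its signal lies over that array's background at a one-sided p of 0.01. The lowest level above background was 4.67 to 4.99 on 16 arrays and 6.39 on memory 5. A difference of 1 on this scale is 2-fold, and the scale understates the change of dim genes. Levels of different probes cannot be compared with each other, so each gene is compared only with itself.

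Ubd was above background on all 4 Tpm arrays, on memory 3, and on none of the other 12 arrays. Its level was 9.06 on Tpm 14, 9.38 on Tpm 4, 10.05 on Tpm 15 and 10.39 on Tpm 7, a mean of 9.72 ± 0.61 (SD, n = 4). On the 5 naive arrays it was 4.37 to 4.47 and on the 5 Teff arrays 4.40 to 4.76. On the memory arrays it was 6.84 on memory 3, 4.59 on memory 5 and 4.50 on memory 9. The Tpm values lie apart from all others, and within the memory group 1 array differs from the other 2. As deposited, before any correction, the Ubd signal was 534 to 1856 on Tpm arrays and 83.6 to 117 on the other 13.

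Against naive cells the Ubd level in Tpm was at least 30.1-fold higher, and against Teff at least 31.1-fold higher. These are bounds, because no naive or Teff array was above background, and they set the Tpm mean against the lowest level above background on each dim array, or Ubd's own value where that is higher. They hold for this correction and offset alone. The mean differences from naive cells and Teff were 5.28 and 5.19, but 3.06 and 3.03 without background correction and 3.26 and 3.23 in the authors' table. With the correction and offset used here, the mean difference from memory cells was 4.41. Of the memory arrays only memory 3 had Ubd above background, so the other 2 enter this mean with values that carry no order.

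The order of Ubd over the Tpm arrays, Tpm 7 over Tpm 15 over Tpm 4 over Tpm 14, is also the order of the endothelial sums (8861, 8510, 6603 and 5620) and of the stromal sums (2254, 2174, 1591 and 1069). Memory 3, the memory array with Ubd above background, has the highest endothelial and stromal sums outside Tpm (1955 and 312), with 13 of 21 endothelial and 4 of 7 stromal markers above background. The part of other cells' RNA in the Ubd level was not tested.

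Serpina3f was above background on all Tpm and all memory arrays, and on 1 naive and 1 Teff array. Its level was 8.89 on Tpm 4, 9.00 on Tpm 7, 9.49 on Tpm 15 and 9.82 on Tpm 14, a mean of 9.30 ± 0.43 (SD, n = 4). In memory cells it was 6.97 on memory 9, 7.21 on memory 3 and 7.76 on memory 5, a mean of 7.31 ± 0.40 (SD, n = 3). On this scale the Tpm and memory values do not overlap, and both lie over all naive and Teff values. Naive arrays held 4.23 to 4.94 and Teff arrays 4.35 to 4.88, with naive 11 and Teff 8 the only arrays of these groups above background.

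Tpm exceeded naive cells by 4.84, Teff by 4.66 and memory cells by 1.99 in Serpina3f level. Unlike Ubd, it was highest on Tpm 14, the Tpm array with the lowest endothelial and stromal sums and the highest macrophage sum (3710) and MHC class II sum (9341, against 409 to 489 on the other 3). On memory 9, where the endothelial sum was the lowest of all arrays (154) and 2 of 21 endothelial and 0 of 7 stromal markers were above background, Serpina3f stood at 6.97. The part of other cells' RNA in the Serpina3f level was not tested.

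Calhm6 was above background on all 17 arrays. Its level was 10.26 on Tpm 15, 10.35 on Tpm 4, 10.45 on Tpm 7 and 10.73 on Tpm 14, a mean of 10.45 ± 0.20 (SD, n = 4). Memory arrays followed with 8.56 on memory 5, 8.98 on memory 9 and 9.59 on memory 3, then naive arrays with 7.79 to 8.20 and Teff arrays with 5.28 to 6.42. On this scale the 4 groups do not overlap. The order of memory over naive cells depends on the normalization, since the deposited signal on memory 5 (102.9) lay under that of every naive array (251.6 to 414.1) and the difference turned to -0.56 with each array scaled to its median.

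Tpm exceeded naive cells by 2.39, Teff by 4.52 and memory cells by 1.40 in Calhm6 level. Naive arrays, on which no stromal marker and 4 to 7 of 21 endothelial markers were above background, held a Calhm6 mean of 8.06 ± 0.16 (SD, n = 5). Among the Tpm arrays Calhm6, like Serpina3f, was highest on Tpm 14. The part of other cells' RNA in the Calhm6 level was not tested.

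Slpi did not separate Tpm from naive cells. Its level was 7.89 on Tpm 14, 9.62 on Tpm 4, 9.73 on Tpm 15 and 10.30 on Tpm 7, a mean of 9.38 ± 1.04 (SD, n = 4). Naive arrays ranged widely, with 7.00 on naive 13, 7.64 on naive 12, 8.45 on naive 2, 10.44 on naive 1 and 10.64 on naive 11. The naive mean of 8.83 ± 1.64 (SD, n = 5) is 0.55 below that of Tpm, and the 2 highest of the naive arrays lie over every Tpm array.

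Memory arrays held Slpi at 5.40 on memory 9, 7.60 on memory 5 and 7.86 on memory 3, and the lowest Tpm array lies only 0.031 over the highest memory array. Teff arrays held 4.28 to 4.88 and only Teff 6 was above background. Tpm exceeded Teff by 4.87 and memory cells by 2.43 in Slpi level. The difference from memory cells was 1.66 without memory 9 and 4.05 without memory 3 and 5.

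Naive 1 and 11, the naive arrays with the highest Slpi, had 8 and 7 of 8 macrophage markers above background, with sums of 842 and 954 against 102 to 136 on the other naive arrays. Their MHC class II sums were 3202 and 2985 against 370 to 1400. Neutrophil markers summed to 1446 and 569 there, and to 43.4, 297 and 520 on naive 12, 13 and 2. Over the Tpm arrays Slpi has the same order as Ubd and as the endothelial and stromal sums, while the Tpm array with the highest macrophage sum has the lowest Slpi. The part of these cells in the Slpi level was not tested.

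**Figure D1:**
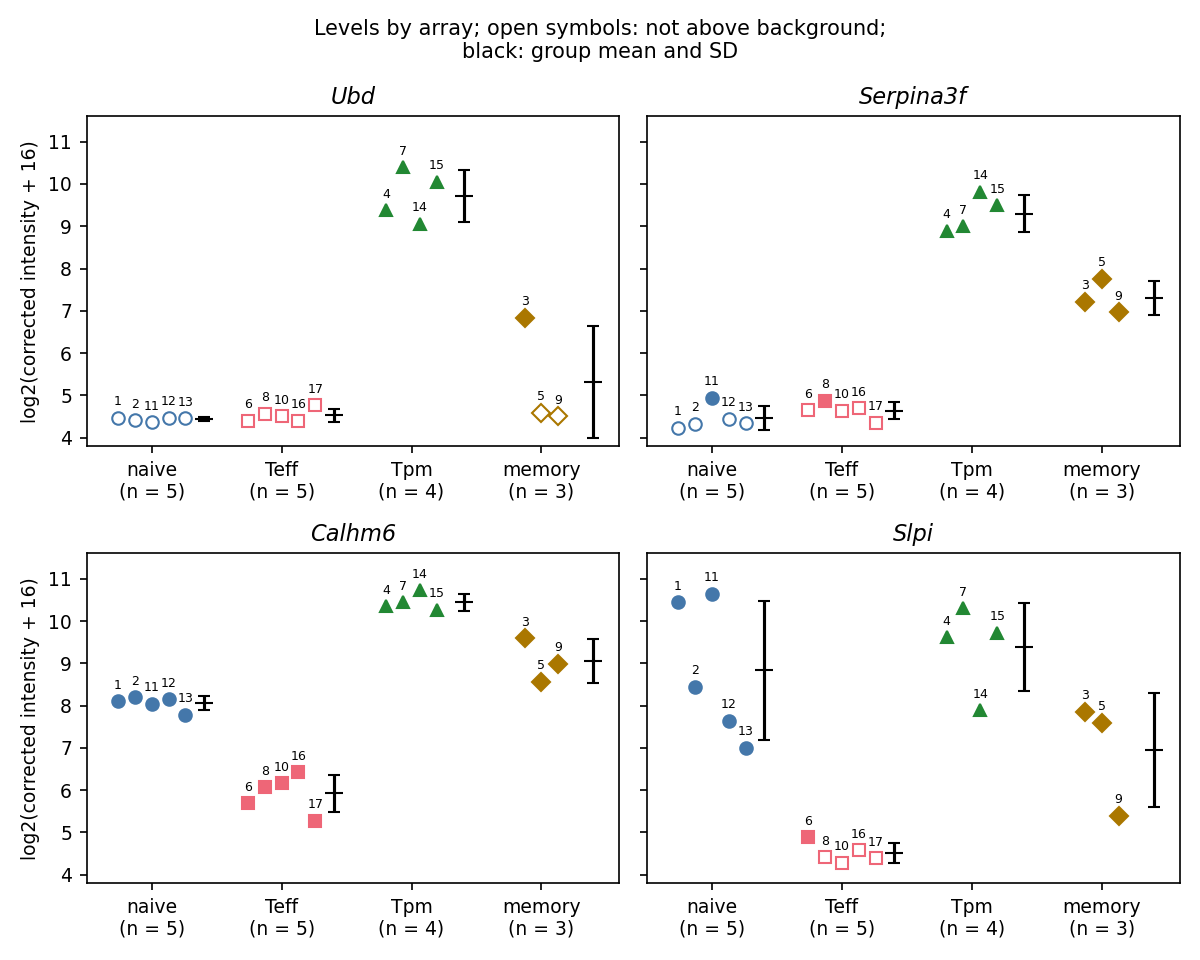
Level of each gene, log2 of the corrected intensity plus 16, on each array, in 4 panels. Colours and shapes mark the groups, small numbers are the sample numbers, open symbols are values not above background, and the black bars are the group mean and SD. Ubd is high on Tpm arrays and memory 3, Serpina3f on Tpm and memory arrays, Calhm6 rises from Teff to naive, memory and Tpm arrays on this scale, with the order of memory and naive cells turning under median scaling, and Slpi overlaps between Tpm and naive cells.

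**Figure D2:**
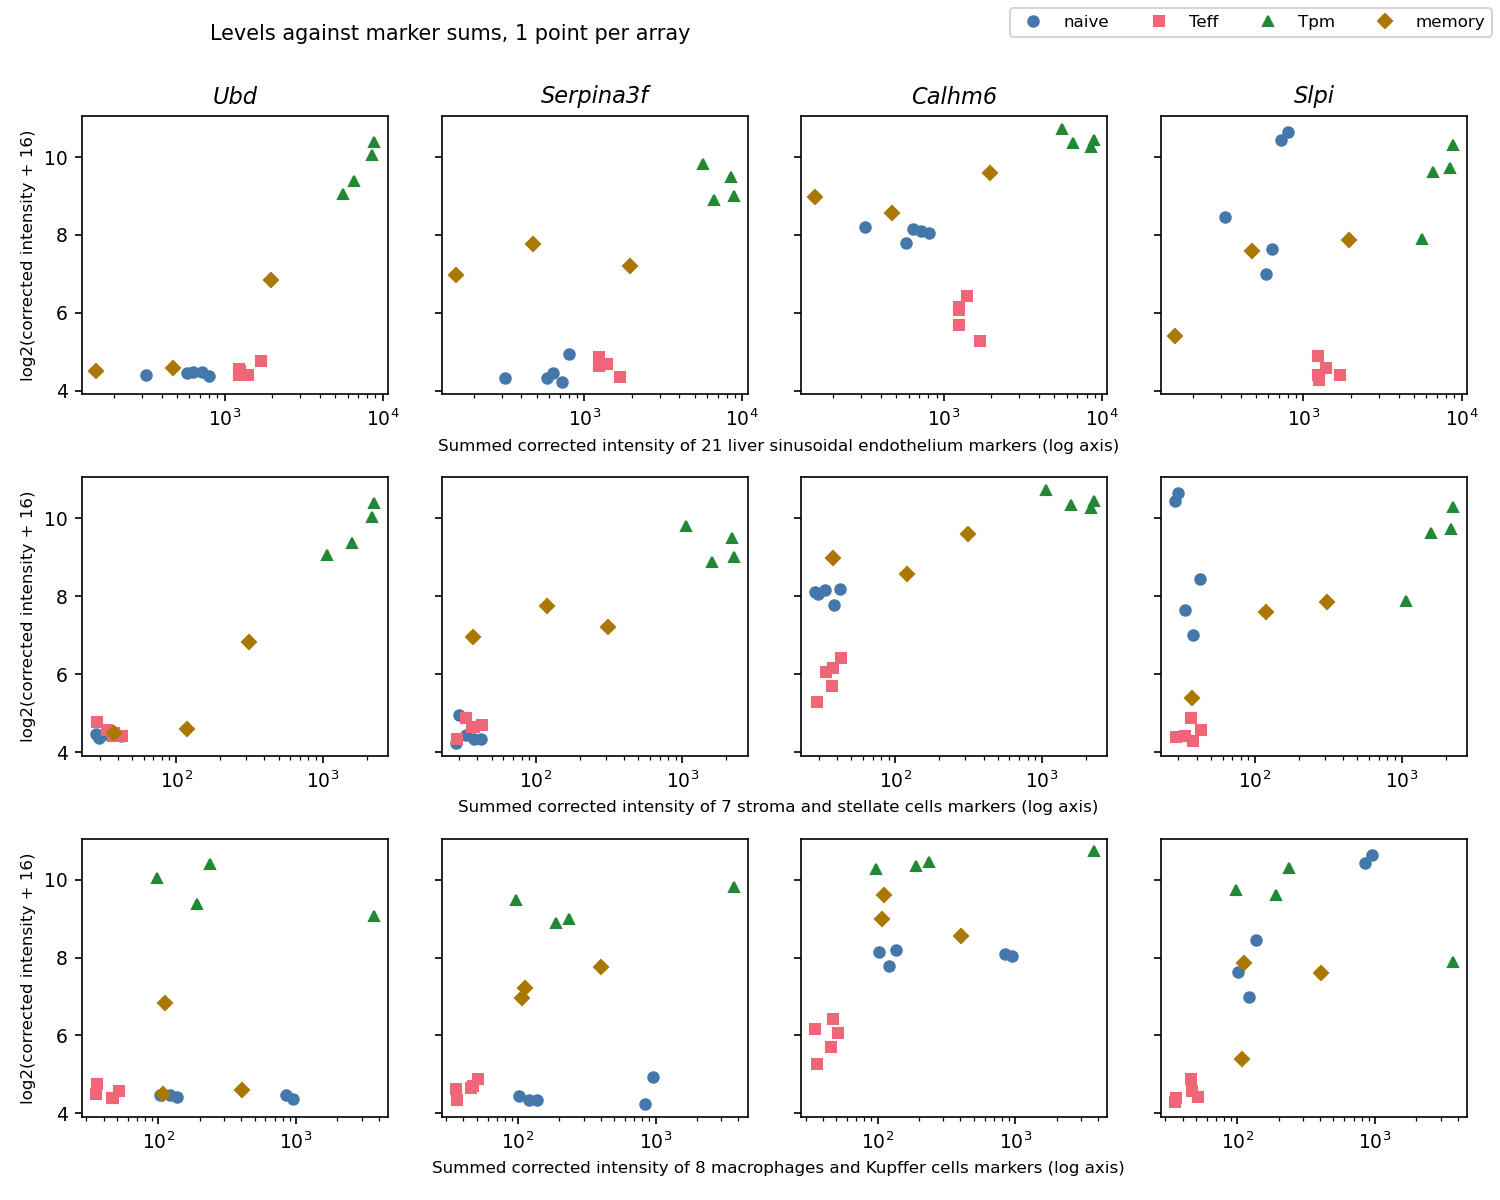
Level of each gene against the summed corrected intensity of 21 endothelial, 7 stromal and 8 macrophage markers on a log axis, 1 point per array. Ubd rises above its floor only on the arrays with the 5 highest endothelial and stromal sums. Calhm6 is at 8.56 or higher on memory arrays, whose endothelial sum lies between 154 and 1955. The part of other cells' RNA in these levels was not tested.

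The criterion for all genes was an adjusted p of limma under 0.05 and at least 2-fold. By it, 8.38% of all genes were called higher in Tpm than in naive cells, 7.42% than in Teff and 9.61% than in memory cells. For the members against Tpm no call is given, since the Tpm level chose them. The Slpi difference from memory cells ranged from 1.66 to 4.05 over 31 alternative settings, against 2.43 as reported. Every Tpm array lay over every other array for Ubd, Serpina3f and Calhm6, as it did for 2.41% of all genes, and 1.74% of all genes were called higher in Tpm than in each other group. The members were chosen for this pattern, so nothing is read from it.

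The comparisons without Tpm were tested. Between Teff and naive cells, Calhm6 and Slpi were lower in Teff, so 2 of 4 members were called lower, where 10.5% of all genes were. Calhm6 was lower by 2.13 (95% interval of the difference -2.59 to -1.68, limma adjusted p = 3.26e-07), with all 5 Teff arrays under all 5 naive arrays. Slpi was lower by 4.32 (-5.70 to -2.95, limma adjusted p = 3.23e-05), again with no overlap. All naive arrays lay over all Teff arrays for 17.2% of all genes. Without naive 1 and 11 the Slpi difference was -3.22 and limma's adjusted p was 0.000296. The sizes depend on the processing. Without background correction the differences were -1.21 for Calhm6 and -2.37 for Slpi. In the authors' table they were -1.30 and -2.54. Serpina3f was above background on 1 array of each group and differed by 0.18 (-0.25 to 0.62, limma adjusted p = 0.524). Ubd was above background on none of these 10 arrays and has no difference there.

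Between memory and naive cells, 1 of 4 members, Serpina3f, was called higher, where 5.59% of all genes were. It was higher by 2.85 (2.36 to 3.35, limma adjusted p = 1.15e-07), with all 3 memory arrays over all 5 naive arrays on the log2 scale used here, as for 10.3% of all genes. In deposited signal memory 5 (94.3) lay under naive 12 (106.9) and naive 13 (103.6), whose background was higher (103.0 and 102.5 against 81.3). The order of these arrays thus rests on the correction and normalization. The Serpina3f difference was 1.54 with each array scaled to its median, 1.30 in the authors' deposited table and 1.18 without background correction, and was called in each. Calhm6 was higher by 0.99 (0.46 to 1.52, limma adjusted p = 0.00814), just under the 2-fold criterion, but was lower by 0.56 when each array was scaled to its median in place of quantile normalization (limma adjusted p = 0.473). Under that scaling the median of all genes lay at -0.80 in this comparison, and the cause of this shift was not tested. Without memory 3 the Calhm6 difference was 0.72 (limma adjusted p = 0.0566), and without memory 5 it was 1.24 (0.00368), which passed both criteria. Slpi differed by -1.88 (-3.47 to -0.29, limma adjusted p = 0.0868), and by -0.75 without naive 1 and 11 (limma adjusted p = 0.468). Over the 31 alternatives the Slpi difference ran from -3.50 to -0.75. It was called lower under some of them, such as median scaling (-3.11, limma adjusted p = 0.0035) and without naive 13 (-2.33, limma adjusted p = 0.0282). Ubd was above background on 1 of the 3 memory arrays and on no naive array, and was not called (limma adjusted p = 0.135). It was called higher with array weights (1.23, limma adjusted p = 0.041) and without memory 9 (1.28, limma adjusted p = 0.0369). Without memory 3, the memory array above background, its difference was 0.11.

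Between memory cells and Teff, 3 of 4 members were called higher in memory cells, where 10.6% of all genes were. Serpina3f was higher by 2.67 (2.17 to 3.17, limma adjusted p = 8.99e-08) and Calhm6 by 3.12 (2.60 to 3.65, limma adjusted p = 2.77e-08). With each array scaled to its median the Serpina3f difference was 1.28. It was 1.23 in the authors' table and 1.11 without background correction, and was called in each. Slpi was higher by 2.44 (0.85 to 4.03, limma adjusted p = 0.0148). On the log2 scale used here all memory arrays lay over all Teff arrays for these 3 genes, as for 17% of all genes. Deposited signals on memory 5 lay under those on Teff 16 for all 3 (94.3 against 128, 102.9 against 240 and 93.1 against 124). The Slpi call was lost under 8 of 31 alternatives. These were the fits without memory 3 (difference 2.02, limma adjusted p = 0.0723), without memory 5 (2.16, adjusted p = 0.061), without both (0.94, adjusted p = 0.567) and without Tpm 14 and memory 3 (2.01, adjusted p = 0.0577), and 4 other processings. With each array scaled to its median, Calhm6 was also not called (1.24, limma adjusted p = 0.0703), under a shift of the median of all genes to -1.11. Ubd was above background on 1 of the 3 memory arrays and on no Teff array, and was not called (limma adjusted p = 0.131). It was called higher with array weights (1.17), without memory 5 (1.17) and without memory 9 (1.19). Without memory 3, the memory array above background, its difference was 0.019.

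These comparisons share their groups, so they are not independent of each other. Side by side, Serpina3f and Calhm6 were both higher in memory cells than in Teff. The level in naive cells was near that of Teff for Serpina3f. For Calhm6 it lay 2.13 over Teff and 0.99 under memory cells, where memory minus naive turned to -0.56 with median scaling. In rising order, Serpina3f ran from naive and Teff, which did not differ beyond their spread, to memory and Tpm. Slpi ran from Teff to memory, naive and Tpm, and neither the memory and naive values nor the naive and Tpm values were apart beyond their spread.

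**Figure D3:**
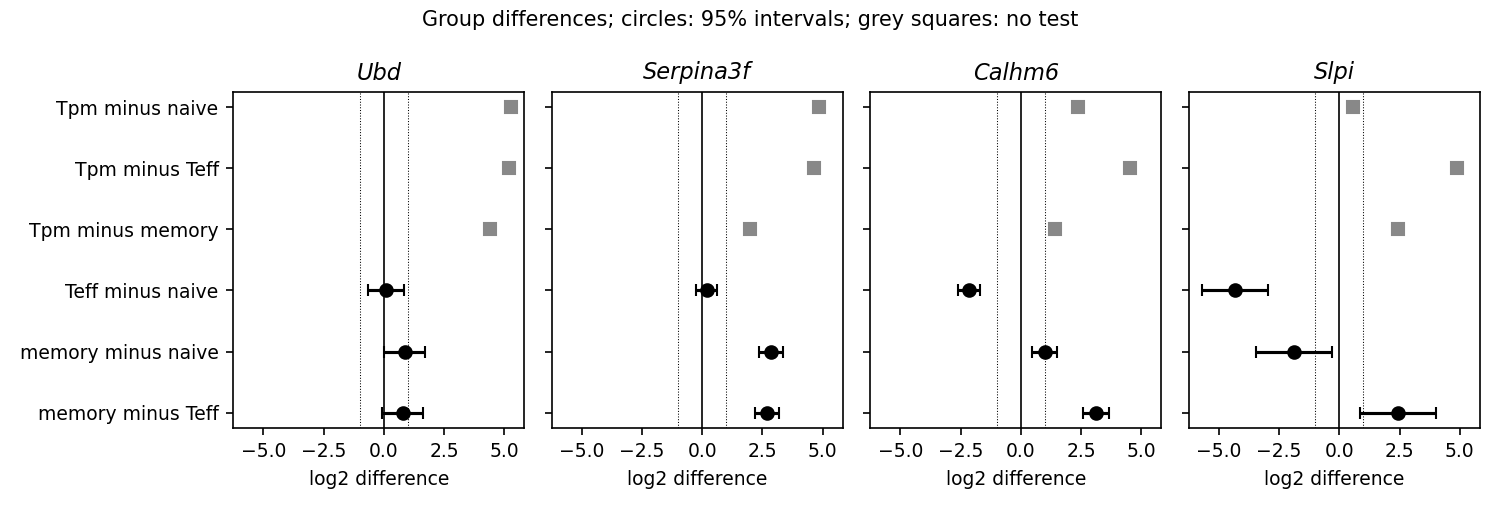
Differences between group means in log2 level for each gene. Black circles with bars are tested differences with their 95% intervals, grey squares are differences against Tpm with no test, and dotted lines mark 2-fold. Ubd values against naive cells and Teff come from arrays not above background and understate the difference. On this scale the intervals of Serpina3f in memory cells (2.36 to 3.35 over naive, 2.17 to 3.17 over Teff) lie wholly beyond the dotted line. Without background correction these Serpina3f differences were 1.18 and 1.11, close to that line.

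The genes whose pattern over the 17 arrays was most like that of each member differed between members. Likeness is the root mean square difference of log2 levels after each gene is centred on its own mean, so smaller is closer. For Ubd the 5 nearest genes were Bgn (0.30), Angpt2 (0.31), Cxcl9 (0.43), Serpinh1 (0.47) and Dcn (0.48), against a median of 2.27 over all other genes. Bgn and Dcn encode the matrix proteoglycans biglycan and decorin, Angpt2 an endothelial ligand, Serpinh1 a collagen chaperone and Cxcl9 an interferon-gamma-induced chemokine. Bgn and Dcn are among the stromal markers and Angpt2 among the endothelial markers counted above.

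For Serpina3f the nearest genes were Ccn2 (0.74), Esm1 (0.80), Emcn (0.87), Cyp1b1 (0.92) and Col4a2 (0.92), with a median of 2.10. Emcn and Esm1 encode the endothelial proteins endomucin and endocan, Ccn2 a matrix-associated growth factor, Cyp1b1 a cytochrome P450 and Col4a2 a basement membrane collagen. Esm1 is the only one of them whose mean in memory cells (7.35) was within 1 log2 unit of that in Tpm (8.13). The distances are larger than those of Ubd. Ubd was above background on no naive or Teff array, and dim genes lie close together there. The distances of these members therefore cannot be set against each other.

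For Calhm6 the nearest genes were St6galnac3 (0.54), Fam149b (0.69), Bcl6 (0.78), Lpar6 (0.84) and Rgs3 (0.89), with a median of 1.76. St6galnac3 encodes a sialyltransferase, Bcl6 a transcriptional repressor of lymphocytes, Lpar6 a receptor of lysophosphatidic acid and Rgs3 a regulator of G-protein signalling. None of these 5 is on the lists of endothelial, stromal or macrophage markers, and all 5 had their lowest mean in Teff, as Calhm6 had. For Rgs3 that mean was 6.44 against 6.55 in naive cells, so that these groups were almost level.

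For Slpi the nearest genes were Vcam1 (1.11), Timp2 (1.24), Pou2af1 (1.27), Kcnc1 (1.30) and App (1.30), with a median of 2.29. Vcam1 encodes an adhesion molecule of activated endothelium and macrophages, Timp2 an inhibitor of metalloproteinases and Pou2af1 a B-cell coactivator. All 5 had their lowest mean in Teff.

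Among the members themselves Ubd and Serpina3f (1.05) and Serpina3f and Calhm6 (1.11) were the closest pairs. Slpi stood farthest, at 2.20 from Ubd, 2.30 from Serpina3f and 1.51 from Calhm6. All 4 genes were chosen for a high level in Tpm.

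Genes of the interferon-gamma response gave a list of 29, of which 23 were measured. Against naive cells, Tpm had 10 of them higher and 0 lower, where 8.38% and 4.8% of all genes were called, with a median difference of 1.00 against 0.056 over all genes. The 4 largest were Cxcl9 (5.26, limma adjusted p = 1.22e-06), the transcription factor Irf8 (3.20), the chemokine Cxcl10 (at least 3.98-fold, above background on no naive array) and the GTPase Igtp (2.19). Against Teff, 13 were higher and 0 lower, where 7.42% and 7.71% of all genes were called (median 1.09 against 0.042 over all genes), led by Cxcl9 (5.58) and Cxcl10 (at least 4.11-fold), then Gbp2 (2.03) and Ifi47 (2.02), which encode GTPases. Against memory cells, 7 were higher and 1 lower, where 9.61% and 5.14% were called (median 0.26 against 0.13), led by Cxcl9 (4.43), Irf8 (2.20), Cxcl10 (1.90) and Igtp (1.65). With each array scaled to its median, the higher counts against Teff and memory cells were 4 and 14. In this list and those below, a gene above background on no naive or Teff array, such as Cxcl10, passed the filter only through Tpm or memory arrays. Being high there was then a condition for its being counted, as for Ubd.

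Of the same list, Teff had 4 genes higher and 2 lower than naive cells, where 13.3% and 10.5% of all genes were called, with Irf8 higher by 3.79 (limma adjusted p = 2.46e-07) and the immunoproteasome subunits Psmb8 and Psmb9 by 1.57 and 1.46. Memory cells had 4 higher and 0 lower than naive cells, where 5.59% and 6.93% of all genes were called, namely Gbp3 (1.90), Gbp7 (1.64), Psmb9 (1.26) and Psmb10 (1.15), beside the higher Serpina3f. Against Teff, memory cells had 7 higher and 1 lower, where 10.6% and 15.2% were called, with Gbp7 at a difference of 2.80 and Irf8 at -2.79. The endothelial and stromal sums are also higher on Tpm arrays than on the others, and Cxcl9, the largest Tpm difference of this list, is among the 5 genes nearest to Ubd. The part of other cells' RNA in these differences was not tested.

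**Figure D4:**
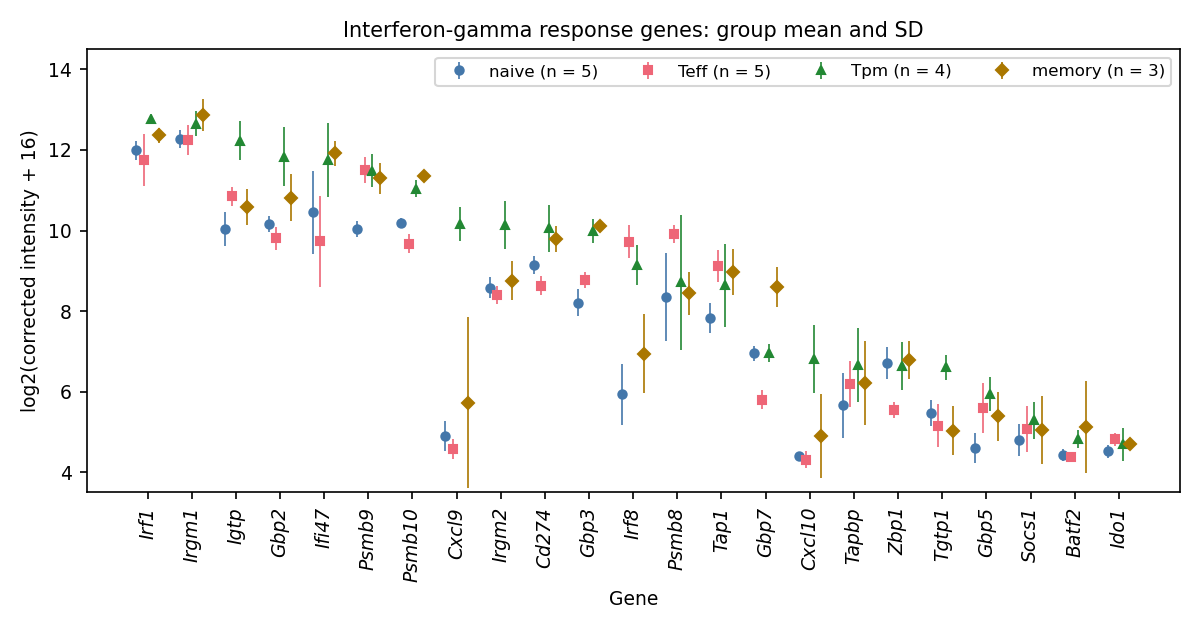
Group mean and SD of the log2 level of the 23 measured interferon-gamma response genes, ordered by their mean in Tpm. Cxcl9 and Cxcl10 are low in naive cells and Teff and spread widely over the 3 memory arrays, whereas Gbp3 and Gbp7 are higher in memory cells than in naive cells.

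Genes of the TNF and NF-kB response, with 22 of 26 measured, went both ways. Against naive cells, 4 were higher and 4 lower in Tpm, where 8.38% and 4.8% of all genes were called, with a median of -0.038. The chemokines Cxcl1 and Ccl2 were at least 5.81-fold and 3.67-fold higher, and were above background on no naive array. Tnfaip3, an inhibitor of NF-kB signalling, was lower by 2.74, and the chemokine Ccl5 by 2.09. Against Teff, 7 were higher and 1 lower, where 7.42% and 7.71% were called (median 0.85), with Vcam1 at least 12.5-fold higher. Against memory cells, 5 were higher and 1 lower, where 9.61% and 5.14% were called (median 0.41), the lower one being Ccl5, by 5.67. Between Teff and naive cells 1 was higher and 6 lower, where 13.3% and 10.5% were called, and Nfkbiz, which encodes a nuclear regulator of NF-kB, fell by 2.63.

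Partners of FAT10 and other ubiquitin-like modifiers, gave 11 measured genes of 16. Mad2l1, which encodes a spindle checkpoint protein that binds FAT10 in human cells, was higher in Tpm than in naive cells by 1.41 (limma adjusted p = 0.000235), lower than in Teff by 1.71 and higher than in memory cells by 1.82. It was also higher in Teff than in naive cells, by 3.12. Uba6, the enzyme that activates FAT10, was lower in Tpm than in memory cells by 1.40 (limma adjusted p = 0.00289), and higher in memory than in naive cells by 1.12. No other measured partner was called in a comparison with Tpm, and the medians there were -0.067, -0.14 and -0.44.

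Of 19 other clade A serpins, 15 had a probe and 1, Serpina3j, passed the filter. It was above background on at most 1 array of a group, and was not called in any of the 6 comparisons. Of 18 serpins of other clades 8 were measured, and Tpm had 4 higher and 0 lower against naive cells, where 8.38% and 4.8% of all genes were called. Serpinh1, whose product folds collagen, was at least 16.4-fold higher, Serping1, the inhibitor of complement C1, at least 4.54-fold and Serpinf1, which encodes pigment epithelium-derived factor, at least 3.73-fold. Serpinb6b, which encodes an intracellular serpin, was higher by 1.26. Against Teff, 2 were higher and 2 lower, where 7.42% and 7.71% were called. Serpinf1 was lower by 2.82 and Serpinb6b by 1.81, while Serpinh1 was at least 16.9-fold higher. Against memory cells, 2 were higher and 1 lower, where 9.61% and 5.14% were called. Serpinf1 was at least 26.3-fold higher in Teff than in naive cells. Serpinh1 is among the genes nearest to Ubd. It was above background on no naive or Teff array, so it passed the filter only through Tpm or memory arrays. As for Ubd, being high there was a condition for its being measured, which limits what its place in these counts shows.

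Cathepsins, serine proteases and a few other proteases gave 15 measured genes of 23, only some of them enzymes that serpins or Slpi can inhibit. Tpm had 0 higher and 1 lower against naive cells, where 8.38% and 4.8% of all genes were called (median 0.34). The lower one was Gzmm, which encodes granzyme M, by 1.86 (limma adjusted p = 2.52e-07). Against Teff 3 were higher and 0 lower, where 7.42% and 7.71% were called, namely Ctsh (1.95), Ctso (at least 1.81-fold) and Ctsw (1.06), which encode cathepsins H, O and W. Against memory cells 1 was higher and 3 lower, where 9.61% and 5.14% were called, with Gzmm lower by 5.20 and Gzmk, which encodes granzyme K, by 1.99. In memory cells, where Serpina3f was higher than in naive cells, Gzmm was higher by 3.34 and Gzmk at least 3.62-fold.

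Of 15 WAP-domain proteins and cystatins, inhibitors related in role to Slpi, 3 were measured, all of them cystatins. Cst7 and Cstb, which encode cystatins F and B, were higher in Tpm than in naive cells by 1.30 and 1.19. They were also higher in Teff than in naive cells, by 1.00 and 1.17, where Slpi was lower. The other genes of the calcium homeostasis modulator family gave no value beside Calhm6, since 3 of 5 had a probe and none passed the filter.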

How the data were processed

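RNA was labelled as biotinylated cRNA and hybridised to Illumina arrays, per the labels' protocols. The deposited values are linear signal intensities per probe with no background subtraction, per the file headers and the values. The authors' processed table also holds linear intensity, and its columns keep the order of the probes within each array (Spearman correlation 1) and share 1 set of sorted values, which is quantile normalization. The scanner is not given in the sources used here.

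Each array's background was set from its own signals, with the mode as mean and the root mean square of signals below the mode as SD, since neither control probes nor detection p-values were used. Signals were corrected with the normexp model of limma (version 3.58.1, R version 4.3.3), raised by 16, quantile normalized over 17 arrays and log2 transformed. A probe was kept if at least 3 arrays had it above background, and the brightest kept probe stood for a gene. Of 45281 probes, 34885 had 1 symbol, 18 several and 10378 none. All 17 arrays entered 1 linear model with a coefficient for each group, with limma's empirical Bayes moderation. Its two-sided p-values were adjusted after Benjamini and Hochberg over 10613 genes. A call needed a difference of 1 or more besides an adjusted p under 0.05. The model was tested on simulated data. Promoters were searched and figures drawn with Python (version 3.11.15) and matplotlib (version 3.10.9).

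The members and the gene lists were chosen with earlier results of these data known, so a list's direction is not independent evidence. The text names every member, at most the 4 called genes with the largest difference per list and comparison, and the 5 genes nearest in pattern to each member. No array was left out or imputed. The alternatives covered the background correction, offset, scaling, filters, choice of probe, arrays in the model, weights, moderation, a covariate, the authors' table and each array left out in turn. The number of arrays limits the precision.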

Additional observations from a re-analysis of the deposited data

How the results depend on the processing

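The results were recomputed under 31 alternatives, 2 of which were chosen after seeing the data, and 17 of which left out 1 array each. No paired analysis was possible because the groups share no sample numbers. Serpina3f was called higher in memory cells than in naive cells and Teff under all 31, and Calhm6 and Slpi lower in Teff than in naive cells under all 31. Ubd has no value under the filter for 8 arrays. Without background correction, Tpm exceeded naive cells by 3.06 in Ubd, 2.70 in Serpina3f and 2.05 in Calhm6, against 5.28, 4.84 and 2.39 as reported. In Slpi, Tpm then exceeded Teff by 2.77, against 4.87. Of the members' tested differences, 2 changed sign, and neither was called: Calhm6 in memory minus naive cells was -0.56 with median scaling, and Ubd in memory cells minus Teff was -0.030 without memory 3 and 5, with no array of either group above background, so that this sign carries no order. That setting leaves 1 memory array, which is assumed to vary like the other groups. Slpi in memory cells against Teff was called under 23 of 31, and Calhm6 in memory against naive cells, not called as reported, under 7.

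Of 4 members, 1, Serpina3f, was called in memory against naive cells, being higher in memory cells. Slpi was also called, as lower, with median scaling (-3.11) and with the covariate for arrays 12 to 17 (-2.38). The same held without Tpm 14 and memory 3 (-2.35). Without memory 3 and 5, which leaves 1 memory array, the Slpi difference was -3.50. Calhm6 was also called, as higher, without naive 1 and 11, and both Calhm6 and Ubd with array weights. Leaving out single arrays gave 1 to 3 called members. Against Teff, 3 were called in memory cells and 1 with median scaling.

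The number of genes called in Tpm against naive cells was 1398, and 544 without background correction, 864 with an offset of 50, 898 with median scaling and 596 from the authors' table. Against Teff it was 1606, and 729, 1069 and 795 without correction, with the offset of 50 and from the authors' table. Against memory cells it was 1566, and 621 without correction, 1002 with the offset, 4553 with median scaling, 683 from the authors' table, and 943 with only these groups in the model. The interferon-gamma genes higher in Tpm than in Teff were 13, but 8 without correction and 4 with median scaling. Against memory cells they were 7, but 4 without correction, 14 with median scaling, 4 from the authors' table and 4 with only these groups. Of the other comparisons, memory against naive cells gave 1328, and 531, 842, 3686 and 597 without correction, with the offset, median scaling and the authors' table. Memory cells against Teff gave 2741, and 1416, 5182 and 1526 without correction, with median scaling and from the authors' table. Teff against naive cells gave 2530, and 1276 and 1389 without correction and from the authors' table.

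Median scaling moved the median of all genes to 1.04 in Tpm minus memory, -0.80 in memory minus naive, -1.11 in memory minus Teff and 0.18 in Teff minus naive cells. The higher share of calls went from 63.6% to 75.1% in Tpm against naive cells, from 49.1% to 31.8% against Teff, from 65.1% to 98.8% against memory cells, from 55.9% to 76.1% in Teff against naive cells, from 44.7% to 2.25% in memory against naive cells and from 41.2% to 1.97% in memory cells against Teff. Without correction it was 53.3% in Tpm against memory cells. The cause was not tested. The lower signal of memory 3 and 5 limits what dim genes such as Ubd show in memory cells.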

Other observations

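Genes of the type I interferon response, which the same cells can switch on beside interferon-gamma genes, were low in Teff. Of 16 measured of 20, 12 were lower and 0 higher in Teff than in naive cells, where 10.5% and 13.3% of all genes were called, with a median of -2.13 against 0.002 over all genes. The antiviral genes Ifit3, Oasl2 and Rsad2 were at least 26.6-fold, 14.9-fold and 10.4-fold lower, and Irf7, which encodes a transcription factor of this response, was lower by 3.51 (limma adjusted p = 5.68e-08). Tpm had 8 genes higher and 0 lower than Teff, where 7.42% and 7.71% of all genes were called. It had 0 higher and 6 lower than naive cells, where 8.38% and 4.8% were, with Oas2 lower by 2.78 and Mx2 by 1.70. Memory cells had 10 genes higher and 1 lower than Teff, where 10.6% and 15.2% of all genes were called, and Ifit3 was at least 47.0-fold higher there.

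Cytokine receptors and their signalling genes gave 18 measured of 21, of which Tpm had 0 higher and 6 lower against naive cells, where 8.38% and 4.8% of all genes were called. Genes of both chains of the interferon-gamma receptor were lower, with differences of -1.5 for Ifngr1 and -1.66 for Ifngr2. The IL-6 receptor gene Il6ra had a difference of -3.28 and the IL-18 receptor gene Il18r1 one of -1.98. In Teff, 7 were lower and 1 higher than in naive cells, where 10.5% and 13.3% were called, with Il6ra lower by 3.68 and Il6st, which encodes the shared chain gp130, by 3.12. Of 14 measured of 16 acute phase and STAT3 response genes, Tpm had 2 higher and 1 lower against naive cells, shares near those of all genes (8.38% and 4.8%). Socs3, an inhibitor of cytokine signalling, was lower by 2.71 (limma adjusted p = 8.36e-07) and was also lower in Teff and in memory cells, by 2.58 and 2.48. Osmr, the receptor gene of oncostatin M, was above background on all 4 Tpm arrays, on no naive or Teff array and on 1 memory array. Its level in Tpm was at least 1.87-fold that of naive cells.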
